A study of Mus musculus with 16 samples.

Results

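The 10 genes described here are the Notch receptors Notch1, Notch2 and Notch3, the ligands Dll1, Jag1 and Jag2, the transcription factor Rbpj and the target genes Hes1, Hey1 and Heyl, taken by symbol from a table of 24411 genes. All 10 were in the table and passed the filter on low counts in every comparison. They were measured in mouse muscle stem cells (MuSCs) sorted from skeletal muscle, in 16 RNA sequencing libraries of 4 groups of 4. The groups are control MuSCs from uninjured muscle, TRF2 knockout MuSCs from uninjured muscle, and MuSCs of each genotype at 3 days post-injury (3 DPI), taken after 10 µl of notexin, a myotoxic snake venom component, was injected into the tibialis anterior muscle. The knockout combines floxed TRF2 alleles with a tamoxifen-inducible Cre expressed from Pax7, so that recombination is limited to Pax7-expressing cells, and tamoxifen was begun in adult mice on a C57BL/6 background. The labels call the control wild type and give neither its alleles nor the age or the number of mice behind a library, so that the p-values below measure the spread between these libraries, which may be technical. TRF2, encoded by Terf2, is a protein of the telomere cap.

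Notch receptors sit at the cell surface and are cut when a Delta or Jagged ligand on a neighboring cell binds them. The freed intracellular domain enters the nucleus and joins RBPJ on DNA, where genes of the Hes and Hey families are transcribed. In skeletal muscle, Notch signaling is known for keeping MuSCs quiescent.

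Library totals ran from 620506 to 1351130 estimated counts. At least 19996 genes had a count in 15 libraries, and 15389 in replicate 3 of the 3 DPI libraries labelled TRF2 knockout, which stands apart, and the calls and directions that change without it are given beside the results. Replicates of a group differed by more than sampling noise in all 24 pairs, with chi-square statistics at least 2.97 times their expectation. The markers of MuSCs, including Pax7, were detected in every group, and no gene of the marker lists was at 0 in all libraries of a group. Terf2 was at 75.3 ± 13 counts per common library total (CPM, SD, n = 4) in uninjured control MuSCs. In uninjured TRF2 knockout MuSCs it was at 45.3 ± 13.3 CPM (SD, n = 4). Each knockout library was below each control library in CPM, but in values corrected for transcript length (TPM, described below) the ranges overlapped. They were 59.6 to 85.2 TPM in control and 29.8 to 67.9 TPM in knockout libraries. At 3 DPI, the control mean was 44.0 ± 7.07 CPM (SD, n = 4), and the libraries labelled TRF2 knockout had a mean of 53.1 ± 25.6 CPM (SD, n = 4), so that they are named by their label. Gene counts do not show which exons the reads cover. CPM here are estimated counts divided by library totals that were scaled with the TMM method, and they are relative to the other RNA of the same library. In sorted bulk RNA, fewer cells of a type and less RNA per cell cannot be told apart.

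To compare levels between genes of different length, values corrected for transcript length and scaled to a common total (TPM) were computed from the second deposited table. In uninjured control MuSCs, Notch3 (483 ± 106 TPM, SD, n = 4) and Heyl (423 ± 61.2 TPM, SD, n = 4) had the highest levels per length, and their ranges over libraries overlapped. Hes1 followed at 307 ± 10.5 TPM (SD, n = 4), Notch2 at 181 ± 18.3 TPM (SD, n = 4) and Notch1 at 107 ± 18.04 TPM (SD, n = 4), and each of these was separate from the gene above it. Hey1, Rbpj and Jag1 came next at means of 91.6, 59.9 and 51.2 TPM, with overlapping ranges between neighbors. Dll1 (35.8 TPM) and Jag2 (26.8 TPM) had the lowest levels and overlapped each other. In uninjured TRF2 knockout MuSCs, Notch3 was again highest (436 ± 95.2 TPM, SD, n = 4), Hes1 (256 TPM) and Heyl (245 TPM) overlapped as the next 2, and Dll1 was lowest (17.3 TPM). At 3 DPI, Notch2 had the highest mean per length in both genotypes (85.5 ± 9 TPM in control and 88.0 ± 24.3 TPM in the libraries labelled TRF2 knockout, SD, n = 4 each). All neighbors in the order of levels overlapped at 3 DPI.

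The receptor genes lie on 3 chromosomes of GRCm38, Notch1 at chr2:26457903-26516663 (minus strand), Notch2 at chr3:98013527-98150361 (plus strand) and Notch3 at chr17:32120820-32166852 (minus strand). Dll1 is at chr17:15367354-15376872, Jag1 at chr2:137081456-137116644 and Jag2 at chr12:112907819-112929776, all on the minus strand. Rbpj is at chr5:53466152-53657362 (plus strand), Hes1 at chr16:30064384-30067796 (plus strand), Hey1 at chr3:8663359-8667256 (minus strand) and Heyl at chr4:123233556-123249875 (plus strand). GENCODE M21 annotates genes that overlap Notch1, Notch2, Notch3, Dll1, Jag2 and Rbpj, so reads of these members could have been shared with them, whereas Jag1, Hes1, Hey1 and Heyl overlap no annotated gene. Promoters of 7 members were found in the RefSeq promoter table (GRCm38.p6), and the 250 bases before the transcription start were searched. Hes1, Hey1 and Heyl are not among these 7. The core hexamer that RBPJ recognizes, TGGGAA, searched on both strands, was present in the window of Rbpj, the gene of the pathway's own DNA-binding protein, and in none of the windows of the other 6. It was present in 21.6% of 32851 promoter windows in the table and in 21.1% of the windows of genes counted here. Letters of the G-quadruplex type are 4 runs of at least 3 G, or of at least 3 C, that are 1 to 7 bases apart. They were present in windows of Notch1, Jag2 and Rbpj. Of all windows 16.7% held them, and of the windows of genes counted here 20.1%. The windows of Rbpj and of 2 receptors with called changes follow, Rbpj (chr5:53590096-53590345, plus strand) with the hexamer of either strand in capitals, Notch1 (chr2:26503823-26504072, minus strand) with 2 stretches of the G-quadruplex type, spacers included, in capitals, and Notch3 (chr17:32166891-32167140, minus strand), which held neither and has no capitals. The matches are a description of letters.
Rbpj: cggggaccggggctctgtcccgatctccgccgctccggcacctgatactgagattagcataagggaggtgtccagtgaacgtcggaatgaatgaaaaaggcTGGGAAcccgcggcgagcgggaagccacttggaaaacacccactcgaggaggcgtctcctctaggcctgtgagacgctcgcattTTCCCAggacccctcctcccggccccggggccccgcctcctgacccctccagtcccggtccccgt
Notch1: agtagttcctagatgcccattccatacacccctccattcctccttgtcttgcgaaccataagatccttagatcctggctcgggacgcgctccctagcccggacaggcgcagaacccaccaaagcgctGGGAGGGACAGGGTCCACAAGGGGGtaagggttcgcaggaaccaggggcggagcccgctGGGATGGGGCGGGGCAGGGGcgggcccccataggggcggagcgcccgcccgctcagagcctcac
Notch3: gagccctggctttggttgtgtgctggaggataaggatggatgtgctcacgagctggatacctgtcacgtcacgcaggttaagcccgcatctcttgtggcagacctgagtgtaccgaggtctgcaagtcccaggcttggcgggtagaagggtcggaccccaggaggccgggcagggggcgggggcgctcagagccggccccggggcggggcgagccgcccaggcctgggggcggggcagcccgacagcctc

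The first question was how the Notch genes behave in control MuSCs after injury, when these cells leave quiescence. All 3 receptors, all 3 target genes and Jag1 were lower at 3 DPI than in uninjured muscle, and Dll1, Jag2 and Rbpj were not called. Calls required an adjusted p under 0.02 in edgeR's quasi-likelihood test, with adjustment over all genes tested, together with a fold change over 1.5. By this rule 7 of the 10 members were lower and 0 higher, whereas 9.46% of the 15356 genes tested were lower and 10.8% were higher. The 7 members called also had no overlap between the groups, as did 11.6% of all genes in that direction. The members' median log2 fold change was -1.15, beside 0.07 over all genes. Scaling by library size alone changed the split of all genes from 1452 lower and 1652 higher to 1066 lower and 1989 higher, and the members called lower from 7 to 6. With the codes of the sample descriptions as a block, the injury estimates rest on 1 uninjured library, and they are given below without calls.

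Notch3, the receptor with the highest level in uninjured libraries, had the largest change among the members. Its values were 1664, 1423, 1388 and 2401 CPM in the uninjured control libraries and 253, 215, 276 and 271 CPM at 3 DPI. Every library at 3 DPI was thus far below every uninjured one, with a log2 fold change of -2.75 (standard error (SE) 0.20, adjusted p = 1.03e-14), a level 6.71-fold lower. Notch1 was at 582, 387, 399 and 449 CPM before injury and at 198, 170, 228 and 179 CPM after it. These groups did not overlap either, and the log2 fold change was -1.21 (SE 0.19, adjusted p = 2.16e-06). Notch2 was at 957, 840, 658 and 949 CPM before injury and at 367, 400, 446 and 371 CPM after it, a log2 fold change of -1.09 (SE 0.18, adjusted p = 7.49e-06), again with no overlap.

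Among the targets, Heyl, a transcriptional repressor of the Hey family, had a change close in size to that of Notch3. It was at 893, 863, 613 and 1037 CPM in uninjured control libraries and at 121, 118, 135 and 176 CPM at 3 DPI. The lowest uninjured value was above all the injured ones, and the log2 fold change was -2.61 (SE 0.20, adjusted p = 4.32e-14), a level 6.1-fold lower. Hes1, a repressor that opposes the onset of differentiation, was at 197, 180, 177 and 196 CPM before injury and at 29.6, 37.8, 30.3 and 50.1 CPM after it. Its log2 fold change was -2.31 (SE 0.22, adjusted p = 1.51e-11), with no overlap and little spread between the uninjured libraries. Hey1, a paralog of Heyl, was at 93.8, 61.0, 87.3 and 107 CPM before injury and at 16.3, 56.3, 22.2 and 12.7 CPM after it. Replicate 2 at 3 DPI was high in its group but still below each uninjured library, and the log2 fold change was -1.67 (SE 0.33, adjusted p = 1.49e-04). With single libraries left out, it ran from -2.35 to -1.40 and stayed called (adjusted p up to 0.00143). The injured Hey1 values rest on 11 to 58 counts.

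**Figure D1:**
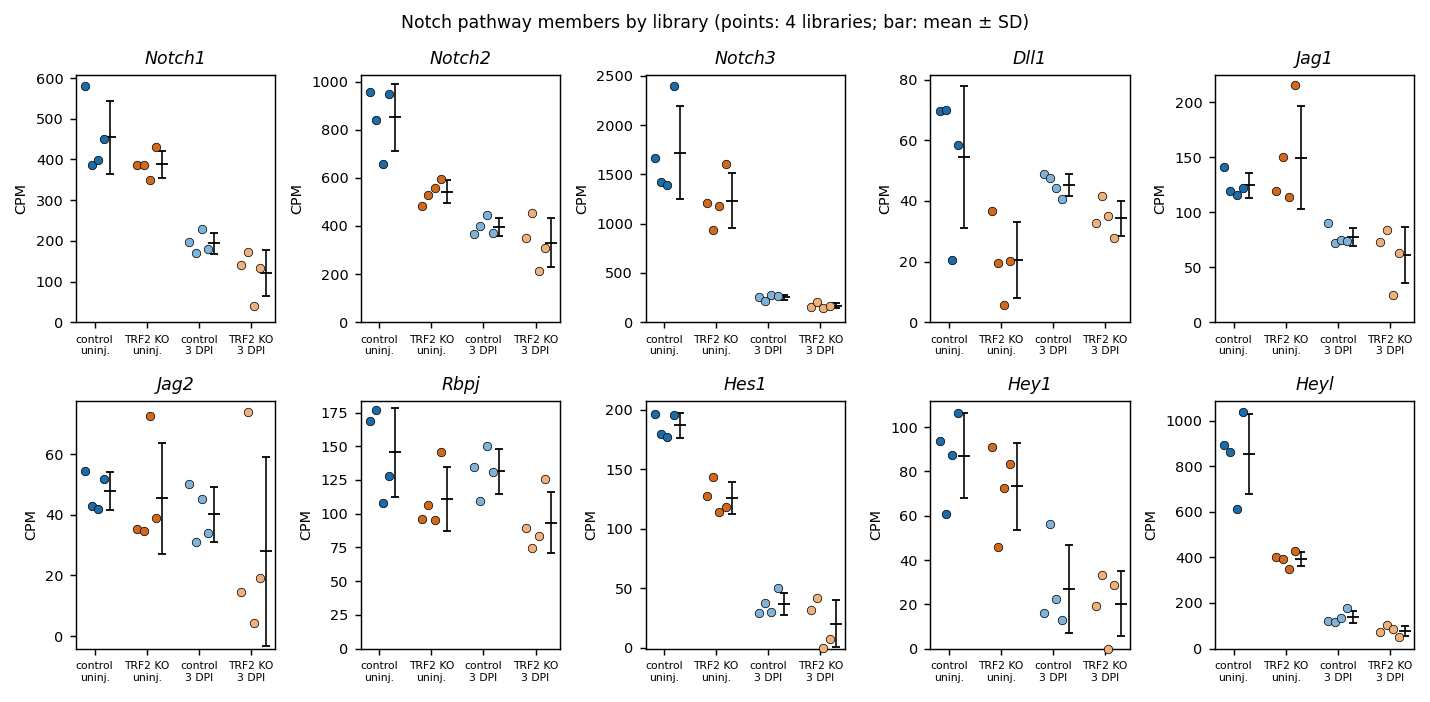
CPM (vertical axis, counts per library total after TMM scaling, linear and starting at or below 0) of each of the 10 members in the 4 groups on the horizontal axis; points are single libraries in replicate order and the bar beside them is the mean ± SD (n = 4), and KO gives the label. Notch3 and Heyl show wide gaps between uninjured and 3 DPI libraries in both genotypes, Heyl is also lower in uninjured TRF2 knockout than in uninjured control libraries, and Rbpj values overlap across the groups.

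The ligands and Rbpj moved less. Jag1, a ligand of the Jagged type, was at 141, 119, 116 and 122 CPM in uninjured control libraries and at 90.2, 71.8, 74.7 and 73.9 CPM at 3 DPI. The groups were separate, and the log2 fold change was -0.67 (SE 0.21, adjusted p = 0.0123). This call was the least stable of the 7, and it was lost when uninjured replicate 1 or 3 DPI replicate 2, 3 or 4 was left out (adjusted p of 0.0373 to 0.0470). In 1 fit of all 16 libraries, Jag1 and Hey1 (-1.71, adjusted p = 0.0408) both lost their calls, which left 5 members. Dll1, a ligand of the Delta type, was at 69.7, 70.0, 20.4 and 58.5 CPM before injury and at 48.8, 47.5, 44.4 and 40.8 CPM after it. Replicate 3 before injury was below all the injured libraries, the others above them, and no change was called (log2 fold change -0.26, 95% interval -0.83 to 0.31, adjusted p = 0.601). Jag2, the second Jagged ligand, ran from 42.0 to 54.5 CPM before injury and from 31.0 to 50.3 CPM after it, with overlap (log2 fold change -0.25, 95% interval -0.81 to 0.30, adjusted p = 0.603). Rbpj, the DNA-binding protein on which the receptors act, was at 169, 177, 108 and 128 CPM before injury and at 135, 110, 150 and 131 CPM after it. Its groups overlapped, with a log2 fold change of -0.14 (95% interval -0.53 to 0.26, adjusted p = 0.709).

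Markers of several cell types moved with injury in the same libraries. Of the 10 MuSC markers, 9 were called lower and 1 higher, with a median log2 fold change of -1.70, and their summed level was 3310 to 5440 CPM before injury and 1190 to 1690 CPM after it. All 10 macrophage and myeloid markers were called higher, from a sum of 66.0 to 111 CPM to one of 4930 to 6800 CPM, although the sort excluded CD45+ and CD11b+ cells. The 10 cell cycle genes were also called higher, from 209 to 262 CPM to 920 to 1360 CPM. Mural cells of vessels are a known site of Notch3 expression, and 8 of their markers other than Notch3 and Des summed to 897 to 1260 CPM before injury and to 679 to 944 CPM after it. Endothelial markers summed to 510 to 756 CPM and to 594 to 887 CPM, and Schwann cell markers to 481 to 594 CPM and to 478 to 670 CPM. Of 10 fibroadipogenic markers 6 were called higher and 3 lower (median log2 fold change 1.61), while their sum, of which Col3a1 and Gsn made up most before injury, went from 6010 to 9070 CPM to 4490 to 6530 CPM. The part of these shifts in the changes of the Notch genes was not tested.

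The make-up of receptor transcripts differed between uninjured and injured libraries. Notch3 made up 62.3 ± 4.72% of the summed TPM of the 3 receptors in uninjured control libraries and 35.5 ± 2.59% at 3 DPI (SD, n = 4 each), and the ranges of 58.0 to 68.8% and 32.7 to 38.7% were separate. The share of Notch2 was 23.6 ± 2.74% before injury and 41.9 ± 2.77% after it, and that of Notch1 was 14.1 ± 2.61% and 22.6 ± 1.34% (SD, n = 4 each). The sum itself was 771 ± 116 TPM before injury and 205 ± 24.1 TPM after it. In the libraries with the TRF2 knockout label, Notch3 was at 62.3 ± 4.25% before injury and 33.3 ± 6.53% after it, with 42.9% in replicate 3 and 29.2 to 31.8% in the other 3. The 3 targets summed to 821 ± 57.8 TPM in uninjured control libraries and to 158 ± 21.3 TPM at 3 DPI, while the 3 ligands summed to 114 ± 15.6 TPM and 86.6 ± 20.2 TPM. These shares are descriptions and were not tested.

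**Figure D2:**
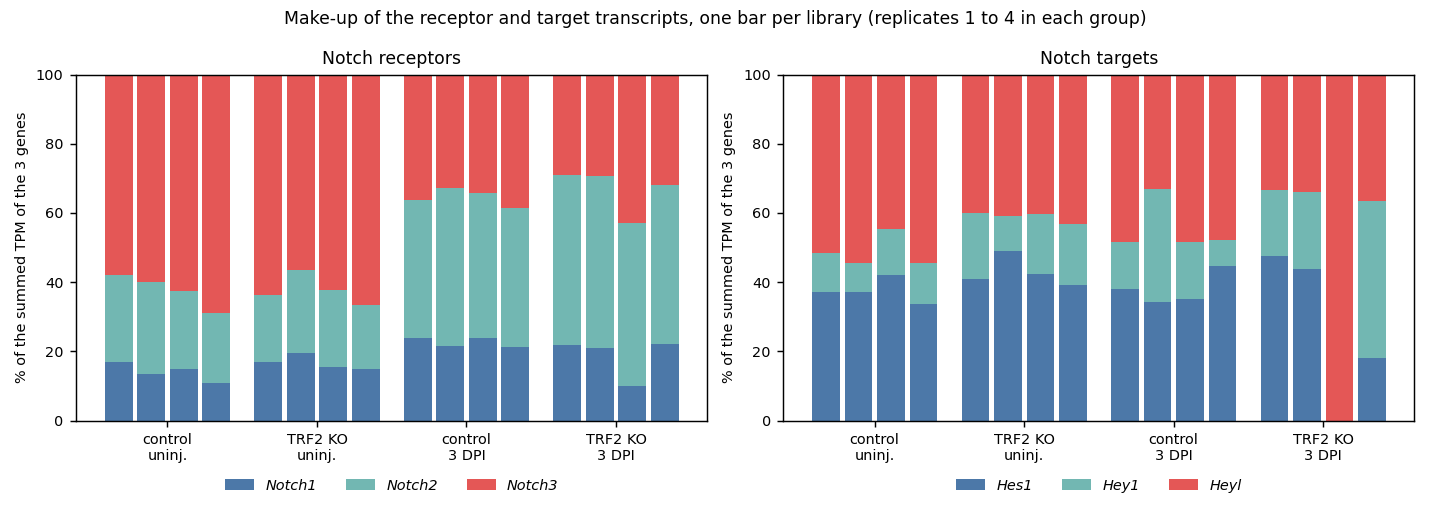
Percent of the summed TPM of 3 receptors (left) and of 3 target genes (right) taken by each gene, with one stacked bar per library and the 4 libraries of each group side by side. Notch3 takes 58.0 to 68.8% of receptor transcripts in uninjured control libraries and 32.7 to 38.7% at 3 DPI; replicate 3 of the 3 DPI libraries labelled TRF2 knockout, where Hes1 and Hey1 had no count, shows only Heyl among the targets.

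The next question was how the same genes behave after injury under the TRF2 knockout label. Comparing the 4 libraries labelled TRF2 knockout at 3 DPI with the 4 uninjured knockout ones, 3 of the 10 members were called lower and 0 higher, beside 1.61% and 2.43% of the 14578 genes tested. The members' median log2 fold change was -1.46, beside 0.01 over all genes, and 7 of the 10 members, the same genes as those called in control, did not overlap between the groups and were lower (8.29% of all genes). Notch3 was at 1215, 936, 1175 and 1611 CPM before injury and at 157, 202, 146 and 160 CPM after it, wide apart, with a log2 fold change of -2.85 (SE 0.25, adjusted p = 8.49e-06). Heyl was at 402, 391, 351 and 427 CPM before injury and at 72.3, 105, 84.3 and 49.1 CPM after it. Its log2 fold change was -2.29 (SE 0.27, adjusted p = 1.28e-04), and no library of one group reached the other. Notch1 was at 388, 386, 349 and 430 CPM before injury and at 141, 172, 40.5 and 134 CPM after it, where replicate 3 was lowest. The log2 fold change of Notch1 was -1.65 (SE 0.34, adjusted p = 0.00811), or -1.34 (adjusted p = 1.09e-04) without replicate 3. That call was lost when any uninjured replicate, or 3 DPI replicate 1 or 4, was left out (adjusted p of 0.0247 to 0.0368), and with the second deposited table (-1.69, adjusted p = 0.0721).

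Hes1, Hey1, Jag1 and Notch2 had negative estimates that were not called. Hes1 was at 128, 144, 114 and 119 CPM before injury and at 31.6, 41.7, 0 and 7.48 CPM after it. The value of 0 in replicate 3 allows up to 3.29 CPM, the level of 3 counts in that library, and such limits cover counting error only. The estimate for Hes1 was -2.62 (SE 0.68, adjusted p = 0.0343), and without replicate 3 it was called lower at -2.19 (adjusted p = 5.85e-05). Hey1 was at 91.0, 46.0, 72.7 and 83.6 CPM before injury and at 19.2, 33.2, 0 and 28.8 CPM after it, with an estimate of -1.82 (SE 0.69, adjusted p = 0.171). Jag1 was at 119, 150, 114 and 216 CPM before injury and at 73.4, 83.5, 25.2 and 63.0 CPM after it, with an estimate of -1.26 (SE 0.36, adjusted p = 0.0531). Without replicate 3, Hey1 (-1.38, adjusted p = 0.0115) and Jag1 (-0.99, adjusted p = 0.0184) were also called lower, which made 6 members, and the calls over all genes were 513 lower and 803 higher in place of 235 and 354. Notch2 was at 484, 528, 559 and 596 CPM before injury and at 349, 456, 211 and 308 CPM after it (log2 fold change -0.68, SE 0.24, adjusted p = 0.146).

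Dll1 was the one member with an estimate above 0. It was at 36.6, 19.4, 5.70 and 20.2 CPM in uninjured TRF2 knockout libraries, the lowest of which holds 4 counts, and at 32.7, 41.7, 35.0 and 27.8 CPM at 3 DPI. The groups overlapped through uninjured replicate 1, and the log2 fold change was 0.78 (95% interval -0.30 to 1.85, adjusted p = 0.571). Jag2 ran from 34.7 to 72.7 CPM before injury and was at 14.7, 73.8, 4.38 and 19.2 CPM after it, a spread wider than its fold change (-0.66, 95% interval -1.96 to 0.64, adjusted p = 0.718). Rbpj ran from 95.5 to 146 CPM before injury and from 74.9 to 126 CPM after it (log2 fold change -0.21, 95% interval -0.76 to 0.35, adjusted p = 0.809). In the same libraries, 7 of 10 MuSC markers were called lower and 9 of 10 macrophage markers higher. MuSC markers summed to 2050 to 2960 CPM before injury and to 531 to 734 CPM after it, macrophage markers to 121 to 187 CPM and to 1900 to 5780 CPM. The 8 mural markers summed to 817 to 1780 CPM and to 738 to 968 CPM. Their part in the result was not tested.

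Whether the injury effect differed between the genotypes was tested with an interaction term on all 16 libraries. It was not called for any member by edgeR's quasi-likelihood test, and 0 of the 10 had an unadjusted p under 0.05, beside 0.0178% of 16822 genes called lower, 0% called higher and 5.74% with an unadjusted p under 0.05. DESeq2 and limma's robust fit also called 0 members. The estimate for Notch3 was 0.00 on the log2 scale (SE 0.34, 95% interval -0.66 to 0.67, adjusted p = 1.00), so that a difference of more than 0.67 in either direction lay outside the interval. For Heyl it was 0.42 (95% interval -0.22 to 1.07, adjusted p = 0.946), and for Hes1 -0.19 (95% interval -1.50 to 1.11, adjusted p = 0.989). With the codes of the sample descriptions as a block, where each injury effect rests on 1 uninjured library, Hes1 was at -2.43. The estimates were -0.325 for Notch1 (95% interval -1.09 to 0.44), 0.52 for Notch2 (-0.08 to 1.11), -0.49 for Jag1 (-1.29 to 0.32), -0.305 for Jag2 (-1.69 to 1.08), 0.03 for Rbpj (-0.65 to 0.72) and -0.04 for Hey1 (-1.51 to 1.43). Without the code block, the largest estimate was that of Dll1, 1.13 (SE 0.60, 95% interval -0.05 to 2.31, adjusted p = 0.889). The intervals of Dll1, Hes1, Hey1 and Jag2 were more than 2 log2 units wide. For every member, differences inside its interval are not excluded. In simulated data, the interaction test recovered 6 of 200 changed genes, so an uncalled interaction says little. Without replicate 3 of the 3 DPI libraries labelled TRF2 knockout, the SE went from 0.66 to 0.43 for Hes1 and from 0.75 to 0.50 for Hey1, with estimates of 0.09 and 0.25. The estimates of Notch3 (-0.0758) and Rbpj (-0.0501) were then below 0. Over all genes, 9 were called lower and 4 higher without that library, in place of 3 and 0, and 0 members were called. The counts of 7 members called in control and 3 under the TRF2 knockout label therefore stand without a tested difference between the genotypes.

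**Figure D3:**
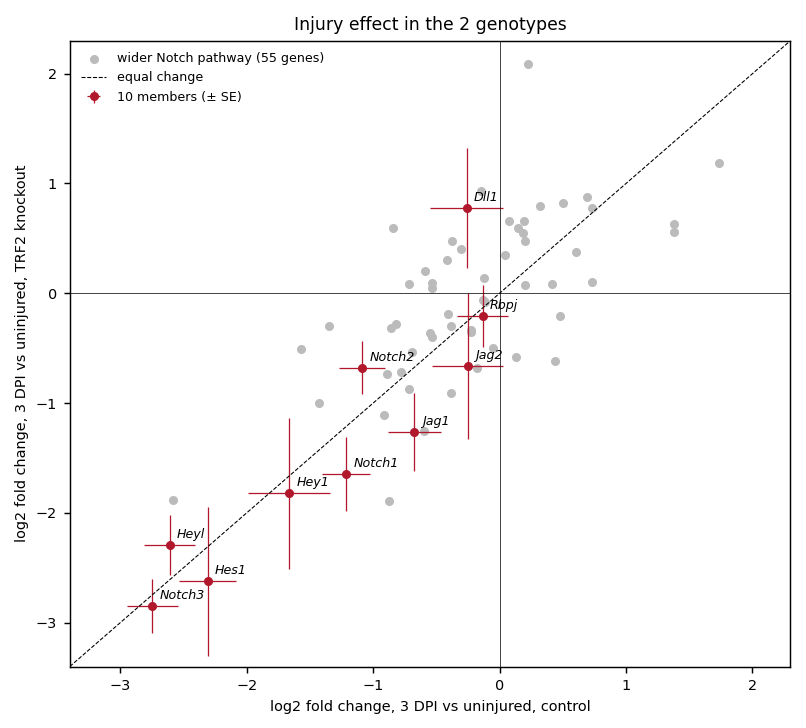
Log2 fold change at 3 DPI against uninjured muscle in control (horizontal axis) and in libraries labelled TRF2 knockout (vertical axis); red points are the 10 members with bars of ± 1 SE, grey points are 55 other genes of the pathway, and the dashed line marks equal change. Notch3 (-2.75 and -2.85) and Heyl (-2.61 and -2.29) lie at the lower left near the line, and Dll1 (-0.26 and 0.78) lies above it.

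In uninjured muscle, the genotypes were compared directly. Heyl was the one member called, lower in the TRF2 knockout, beside 2.63% of the 14048 genes tested called lower and 0.584% called higher. Scaling by library size alone changed those calls from 370 lower and 82 higher to 212 and 176, and moved the median over all genes from 0.06 to 0.24 on the log2 scale. All 4 Heyl values in the knockout, 351 to 427 CPM, were below the lowest control value of 613 CPM, and the log2 fold change was -0.997 (SE 0.19, adjusted p = 6.12e-04). With the second deposited table in place of the first, the estimate was -1.03 at an adjusted p of 0.0418, so that the call was lost. As a share of the 3 targets' TPM, Heyl was at 51.3 ± 4.66% in control and 41.1 ± 1.47% in knockout libraries (SD, n = 4 each). Hes1 and Notch2 were also lower in every knockout library than in every control library, without being called (estimates of -0.45 and -0.53, adjusted p of 0.189 and 0.0894), as were 8.84% of the genes tested. Dll1 had the largest estimate, -1.27 (SE 0.39, adjusted p = 0.0424), but control replicate 3, at 20.4 CPM, lay within the knockout range of 5.70 to 36.6 CPM. Leaving out that library gave -1.55 (adjusted p = 0.00646), and leaving out knockout replicate 1 gave -1.72 (adjusted p = 0.0129), and each made Dll1 a call, whereas the other single libraries left out gave no call, with estimates as small as -1.0 and adjusted p up to 0.153. Notch1 (-0.11, 95% interval -0.48 to 0.26), Notch3 (-0.36, -0.76 to 0.03), Jag2 (0.03, -0.56 to 0.62), Rbpj (-0.28, -0.70 to 0.14) and Hey1 (-0.14, -0.63 to 0.35) had intervals that include 0. Jag1 had an estimate of 0.38 (95% interval -0.04 to 0.80, adjusted p = 0.326), and knockout replicate 4, at 216 CPM, was its highest library. MuSC markers were lower in the same comparison (7 of 10 called, with a sum of 3310 to 5440 CPM in control and 2050 to 2960 CPM in knockout), and 2 mural markers were called higher. Fibroadipogenic markers summed to 6010 to 9070 CPM and 1980 to 3310 CPM, with Col3a1 at means of 5230 and 1110 CPM, while 5 of the 8 tested had estimates above 0 (median 0.47), with Col3a1, Gsn and Dpt called lower and Dcn called higher. Macrophage and myeloid markers summed to 66.0 to 111 CPM in control and 121 to 187 CPM in knockout libraries, without overlap. Their part in the result was not tested.

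At 3 DPI, no member was called between the genotypes, and no gene of 14559 was called by edgeR's quasi-likelihood test (0% lower and 0% higher, with 1362 genes, 9.36%, at an unadjusted p under 0.05). DESeq2 called 22 genes and limma's robust fit 1, and neither called a member. All 10 estimates were below 0, with a median of -0.34, where 49.9% of all genes were below 0, as were all 10 MuSC markers, all 10 macrophage and myeloid markers and all 10 cell cycle genes (sums of 920 to 1360 CPM in control and 616 to 960 CPM under the TRF2 knockout label). Without replicate 3 of the libraries labelled TRF2 knockout, Notch2 (0.0271), Jag1 (0.039) and Hey1 (0.124) were above 0, the estimates went from -0.52 to -0.26 for Notch1 and from -0.73 to -0.34 for Hes1, and 16 genes were called in place of 0, none of them a member. Within code JH133, a code in the sample descriptions, Notch2, Jag1, Jag2 and Hes1 were above 0. Heyl, at 118 to 176 CPM in control libraries and 49.1 to 105 CPM in those labelled TRF2 knockout, did not overlap (log2 fold change -0.65, SE 0.29, adjusted p = 0.523). Notch3, at 215 to 276 CPM and 146 to 202 CPM, did not overlap either (-0.44, SE 0.21, adjusted p = 0.534), and 6.48% of the genes tested were lower in this way. For the other 8 members the groups overlapped, with estimates of -0.52 for Notch1, -0.10 for Notch2, -0.24 for Dll1, -0.20 for Jag1, -0.36 for Jag2, -0.33 for Rbpj, -0.73 for Hes1 and -0.27 for Hey1. MuSC markers summed to 1190 to 1690 CPM in control and 531 to 734 CPM in the libraries labelled TRF2 knockout, and macrophage markers to 4930 to 6800 CPM and 1900 to 5780 CPM, and their part in these values was not tested. The genotype comparisons share libraries with the injury comparisons above, and their values for a gene are not independent of them.

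**Figure D4:**
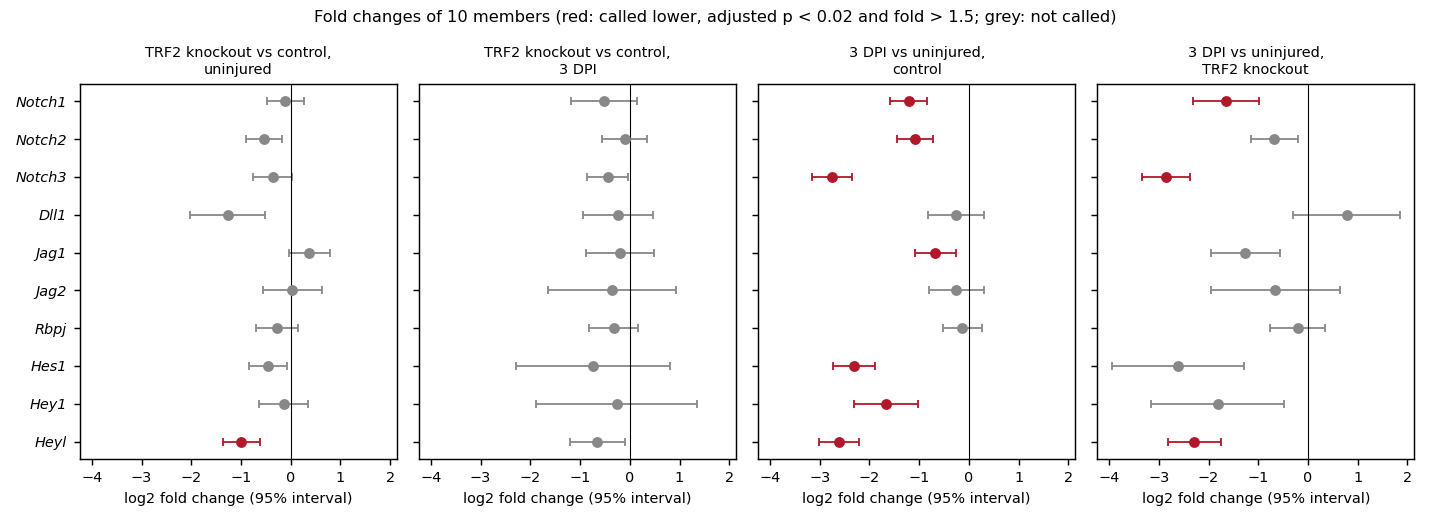
Log2 fold change (horizontal axis, points) with its nominal 95% interval (bars, ± 1.96 SE, narrower than the test implies) for the 10 members (vertical axis) in the comparison of genotypes in uninjured muscle and at 3 DPI and in the comparison of 3 DPI with uninjured muscle in each genotype as labelled; red marks members called lower. Red points number 1, 0, 7 and 3 from left to right.

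The sample descriptions carry codes whose meaning the labels do not give, and no code in uninjured muscle holds both genotypes, so that code and genotype cannot be told apart there by comparison within a code. Injured and uninjured control libraries share code JH140, within which the log2 fold changes were -3.24 for Notch3, -2.84 for Heyl, -2.38 for Hes1 and -1.25 for Notch1. Within code JH139, libraries labelled TRF2 knockout gave -3.4 for Notch3 and -2.68 for Heyl. The uninjured side of both comparisons is 1 library, so these are given as values without a test. A fit of all 16 libraries with the codes as a block has the same limit. Injured and uninjured libraries of a genotype share only 1 code, so the injury estimates rest on the same uninjured library. In control they were -3.22 for Notch3, -2.82 for Heyl, -2.37 for Hes1 and -1.23 for Notch1. They were -1.30 for Notch2, -0.80 for Jag1 and -2.70 for Hey1. Under the TRF2 knockout label they were -3.26 for Notch3 and -2.53 for Heyl. The uninjured genotype estimate for Heyl was -0.67 (SE 0.66), reached only through these uninjured libraries. The fit thus cannot show whether the calls hold apart from the codes.

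Beyond the 10 members, 59 other genes of the pathway were listed by role. In control MuSCs after injury, 57 were tested, of which 11 were lower and 5 higher, with a median log2 fold change of -0.18, beside the 9.46% and 10.8% of all genes given above. The inhibitors and turnover factors included 4 of 11 lower, among them Dtx4, a Deltex E3 ligase (-2.59, adjusted p = 4.92e-14), Nedd4, a ubiquitin ligase (-1.43, adjusted p = 5.22e-08), Dtx3 (-1.57, adjusted p = 3.09e-06) and Numb, an antagonist of Notch (-0.72, adjusted p = 0.0152). Of 13 coactivators and corepressors, 4 were lower, among them Kat2b (-0.89), Tle3 (-0.78) and Spen (-0.72). Of 10 genes of receptor cleavage, 4 were higher and 1 was lower. Those higher were the sheddase Adam17 (1.38, adjusted p = 2.31e-06), the related protease Adam10 (0.69, adjusted p = 0.0141), the gamma-secretase subunit Aph1c (1.38, adjusted p = 0.0103) and Furin, which processes the Notch precursor (0.73, adjusted p = 0.0043), and Aph1b was lower (-1.35, adjusted p = 0.0136). Aph1b and Aph1c are closely related copies, whose reads the counting could have split. Among the 11 genes of ligand uptake and receptor glycosylation, Lfng, a glycosyltransferase that modifies Notch receptors, was higher (1.74, adjusted p = 2.53e-04), and Mib2 (-0.86) and Epn2 (-0.88) were lower. None of the 8 tested additional targets, 3 additional ligands or Notch4 was called.

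In the libraries labelled TRF2 knockout after injury, 56 of these genes were tested. Of these, 2 were called lower, Dtx4 among them (-1.89, adjusted p = 5.67e-04), and 0 higher, beside 1.61% and 2.43% of all genes. Between genotypes in uninjured muscle, 3 of 53 were called, all lower, namely Ccnd1, which encodes cyclin D1 (-1.63), Nedd4 (-1.12) and Dtx4 (-1.07), with a median of -0.05 over the list, beside 2.63% of all genes called lower. At 3 DPI 0 of 55 were called between genotypes, and the interaction was called for 0 of 57, 5 of them with an unadjusted p under 0.05, beside 5.74% of all genes. Dtx4 had means of 1140, 499, 187 and 130 CPM in uninjured control, uninjured knockout, injured control and injured libraries labelled TRF2 knockout.

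Calcr and collagen V and VI genes are known as Notch targets in MuSCs, and 5 were listed. Calcr, the calcitonin receptor, was lower after injury in control (-3.32, adjusted p = 1.28e-13), as were Col5a3 (-2.18, adjusted p = 3.45e-12) and Col6a1 (-1.05, adjusted p = 1.62e-05). Col5a1 (-0.26) and Col6a2 (0.19) were not called. In the libraries labelled TRF2 knockout, 1 of the 5, Col5a3, was called lower after injury (-1.53, adjusted p = 0.00607). Calcr had an estimate of -1.995 (adjusted p = 0.134), and Col5a1, Col6a1 and Col6a2 had estimates of 0.80, 0.27 and 0.86 without being called. The interaction had estimates above 0 for all 5, from 0.76 to 1.44, of which 4 had an unadjusted p under 0.05 and 0 were called (adjusted p of 0.547 to 0.889), beside 5.74% of all genes with an unadjusted p under 0.05. In uninjured muscle, Calcr, Col5a1, Col5a3 and Col6a1, 4 of the 5, were called lower in the knockout, beside 2.63% of all genes. Calcr was at a mean of 158 CPM in control and 58.6 CPM in knockout libraries. The paper names the same 4 genes as down-regulated in its knockout MuSCs, so this count is not independent of the choice of the list. The uninjured knockout libraries enter both this comparison and the interaction.

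Within groups, the members were compared by the correlation of their log2 CPM around the group means over 16 libraries, in which the values of all members come from the same libraries and depths. Of 45 pairs, 17 had r above 0.5, and 12 did when replicate 3 of the 3 DPI libraries labelled TRF2 knockout was left out. Notch1 and Jag1 had the highest value (r = 0.89, or 0.74 without that library), followed by Notch1 with Notch2 (0.84 and 0.72) and with Hes1 (0.84 and 0.57). Notch3 and Heyl had r = 0.54, or 0.58 without it. Rbpj had no r above 0.33 with any other member. Among 16437 genes whose log2 CPM averaged 3 or more, those most like Notch3 were Hspg2, which encodes perlecan (r = 0.909, or 0.906 without that library), Ctdsp2 (0.811) and Abca8a (0.803). Those most like Heyl were Aqp1, a water channel (0.906 and 0.905), Stk40 (0.903) and Sec63 (0.898). Dll1 was most like Rreb1 (0.911), Agfg2 and Lyrm1, and Rbpj most like Ncl (0.856), Zfp219 and Pnn. For Notch1 the nearest were Trak1 (0.969, or 0.901 without that library), Phc3 and Csnk1g3, for Notch2 Snhg17 (0.938), Phf12 and Hadha, and for Jag1 D030028A08Rik (0.973), Mcrs1 and BC023829. For Jag2 they were Me3 (0.929), Rapgef3 and Lpin3, for Hes1 Pcm1 (0.972), Zeb2os and Stat5b, and for Hey1 Naa30 (0.946), Efcab6 and Col8a2. When that library was left out, the r of the nearest gene was lower for every member but Dll1 (0.911 and 0.929). It moved little for Notch3, Heyl and Rbpj (0.856 and 0.853). These correlations describe the libraries and were not tested.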

How the data were processed

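MuSCs were sorted as CD45-, CD31-, CD11b- and Sca1- cells that were α7-integrin+ and VCAM+ or CD34+, and their RNA was made into strand-specific, randomly primed libraries after depletion of ribosomal RNA. Per the labels and the study's methods, the authors trimmed reads (Trim Galore 0.6.7), aligned them to GRCm38 (STAR, 2.6.1d in the submitters' processing notes) and deposited estimated counts per gene from Salmon 1.5.2, without normalization and without pooling replicates. Whether molecular identifiers collapsed duplicate reads, and the annotation release, are not given in the sources used here. A second deposited table holds estimated counts rescaled by abundance to the same totals, and TPM were taken from it as shares of each total. Groups came from the sample titles.

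Estimated counts were rounded. Each comparison of 2 groups used its own 8 libraries, edgeR 4.0.16 (R 4.3.3) with filterByExpr, TMM scaling, the robust quasi-likelihood test and Benjamini-Hochberg adjustment over all genes tested, and the interaction used all 16. Calls required an adjusted p under 0.02 and a fold change over 1.5. The SE is the log2 fold change divided by the root of the quasi-likelihood statistic, and intervals are ± 1.96 SE, from the normal distribution. With so few libraries they are narrower than the test implies. For genotype at 3 DPI, Notch3 had an interval of -0.85 to -0.03 at an unadjusted p of 0.0551 in the quasi-likelihood test. CPM were scaled by TMM over all 16 libraries, and log2 CPM had a prior count of 2. The procedure was tested on simulated data with 200 changed genes in each comparison. For genotype it recovered 92 in uninjured muscle and 19 at 3 DPI. For injury it recovered 93 in control and 27 under the knockout label, and for the interaction 6. Of genes changed by 1 log2 unit, it recovered 19%, 0%, 24%, 3% and 0% in the same order. Alternatives used limma 3.58.1, DESeq2 1.42.0, other scalings and filters, blocks and left-out libraries. All 10 members are named in every comparison, of the pathway list and the 5 MuSC Notch targets the genes called in any comparison (a gene of the pathway list is counted but not reported here), of marker lists counts and sums, and for each member the 3 genes of highest r. The members and lists were chosen with earlier results of these data known. GENCODE M21 matched 95.76% of the 24411 symbols.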

Additional observations from a re-analysis of the deposited data

Results flagged for a closer look

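In 2 of 40 sets of 4 libraries (10 members in 4 groups), 1 library stood apart from the other 3 by Dixon's test, where chance flags about 1 set in 20. Jag1 was at 90.2 CPM in replicate 1 of the control libraries at 3 DPI, whereas the other 3 were at 71.8 to 74.7 CPM (gap over range 0.842). Jag2 was at 72.7 CPM in replicate 3 of the uninjured TRF2 knockout libraries, whereas the other 3 were at 34.7 to 39.1 CPM (gap over range 0.885).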

How the results depend on the processing

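Over 1088 re-estimated member fold changes, 975 kept their direction and side of the threshold, 26 lost a call, 18 gained one and 69 turned direction, and 0 of those that turned had been called. These counts include the code block and the fits within codes JH139 and JH140, whose injury estimates rest on 1 uninjured library per genotype. Under every other alternative, Notch3, Hes1 and Heyl after injury in control were among the results called. So was Notch3 after injury under the TRF2 knockout label. The causes of the changes below were not tested. For genotype in uninjured muscle, 1 member was called lower, against 0 with the second table and 1 to 2 with single libraries left out. The count was 2 at an adjusted p under 0.05 with no minimum fold, with no filter and in limma's robust fit. After injury in control, 7 became 5 in 1 fit of all 16 libraries, and 6 to 7 with single libraries left out. Jag1 also lost its call there with no filter (adjusted p = 0.0203) and with at least 10 counts in every library (adjusted p = 0.0277). After injury under the TRF2 knockout label, 3 became 5 in DESeq2, in limma's robust fit and in 1 fit of all 16 libraries. With single libraries left out, 2 to 6 were called. The fits within codes JH133, JH139 and JH140 were chosen after seeing the data. JH139 and JH140 hold 1 uninjured library each, so their spread is assumed. The code block rests on the same uninjured libraries. Calls of the code block and within JH139 and JH140 are left out of these member counts and of the ranges below. Both genotype at 3 DPI and the interaction had 0 members called throughout. Calls over all genes ran from 17 to 711 (452 in the main setting) for genotype in uninjured muscle and 0 to 22 (0) at 3 DPI. After injury they ran from 1595 to 3700 (3104) in control and 283 to 1316 (589) under the TRF2 knockout label. For the interaction they ran from 1 to 79 (3).

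Same-numbered replicates shared only a number, since their deviations from group means had r from -0.111 to 0.111. With the replicate block, 2 members were called lower for genotype in uninjured muscle (Dll1 at -1.35 joined Heyl), Jag1 lost its call in control (6 members), 3 were called under the TRF2 knockout label, and Jag2 in uninjured muscle turned to -0.0204. Calls over all genes were 536, 0, 2837, 364 and 1 in the order above.

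Uncalled estimates that turned were as follows. Library size alone gave 0.0801 for Notch1 and 0.0593 for Hey1 (genotype, uninjured), 0.000926 for Notch2 (genotype, 3 DPI), 0.0315 for Rbpj (injury, control), and -0.165 for Notch3 and -0.121 for Rbpj (interaction). For Jag2 in uninjured muscle, no filter gave -0.0479, limma's robust fit -0.181, limma-voom -0.056 and 1 fit of all libraries -0.0919. The code block gave 0.77 for Notch1 and 2.60 for Hes1 (genotype, uninjured), 0.12 for Notch2, 0.00386 for Jag1, 0.20 for Jag2 and 0.17 for Hes1 (genotype, 3 DPI), 0.0426 for Rbpj (injury, control), and -0.0358 for Notch3, -0.39 for Rbpj and 0.30 for Hey1 (interaction). Within code JH133, Notch2 was at 0.13, Jag1 at 0.0152, Jag2 at 0.21 and Hes1 at 0.18, and within JH140 Rbpj was at 0.0216. The interaction of Notch3 was -0.13 with no filter, -0.14 in limma's robust fit, -0.0029 in limma-voom, -0.0436 with median-of-ratios factors, -0.0434 in DESeq2, -0.0739 with at least 10 counts in every library and -0.0167 with the second table. That of Rbpj was -0.0969 with no filter, -0.0138 with median-of-ratios factors, -0.0114 in DESeq2 and -0.0437 with at least 10 counts, and that of Hey1 was 0.52 in limma's robust fit. With single libraries left out, the interaction ran from -0.23 to 0.10 for Notch3, -0.15 to 0.16 for Rbpj, -0.49 to 0.63 for Hey1 and -0.94 to 0.0896 for Hes1. Genotype at 3 DPI ran from -0.63 to 0.38 for Hey1, -0.40 to 0.039 for Jag1 and -0.31 to 0.0271 for Notch2, and genotype in uninjured muscle from -0.30 to 0.13 for Jag2 and -0.30 to 0.0273 for Hey1. Jag2 moved widely without turning when single libraries were left out. It ran from -1.76 to -0.28 for injury under the TRF2 knockout label, -1.51 to -0.0196 for genotype at 3 DPI and -1.55 to -0.0663 for the interaction. Depth limits members with few counts, of which Dll1 and Jag2 had as few as 4 and Hes1 and Hey1 0 counts in a library.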
